A study of Rattus norvegicus with 14 samples.

Results

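The cytosolic ribosomal protein (RP) genes measured here were the 33 genes, of 19357 in all, whose names in the authors' annotated table are those of an RP of the small (Rps) or large (Rpl, Rplp) subunit. The kinases named Rps6k were left out. Of the 33, 13 belong to the small and 20 to the large subunit. In the rat RefSeq annotation (GRCr8) 78 protein-coding gene names match the same pattern, so the arrays, as annotated by the authors, gave values for only some of them. Messenger RNA of the abdominal aorta of female Wistar rats was profiled on Rat Gene 1.1 ST arrays of Affymetrix, with 1 array for each rat. The 3 groups were non-pregnant rats (NPr, n = 4), healthy pregnant rats (Pr, n = 5) and rats with experimental preeclampsia (ExpPE, n = 5). All rats carried a jugular cannula and were infused over 1 h with 2 ml of saline, 14 days after the cannula was placed. For the pregnant rats this was day 14 of pregnancy. In ExpPE rats the saline held 1 µg of lipopolysaccharide per kg of body weight (LPS, a part of the wall of Gram-negative bacteria), and Pr and ExpPE aortas were taken on day 20 of pregnancy. NPr rats were age-matched and in diestrus. No non-pregnant rats with LPS were on the arrays, so an effect of LPS cannot be told apart from one of LPS in pregnancy. The outbred rats serve as a model of preeclampsia through 1 low dose of LPS, and the aorta is a conductance vessel.

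Ribosomes translate every messenger RNA of a cell. RPs are made in matched amounts and assembled with ribosomal RNA in the nucleolus, and their transcripts begin with a tract of pyrimidines, the terminal oligopyrimidine (TOP) motif, through which the kinase mTOR adjusts their translation to nutrients and growth signals. Because many RP transcripts are abundant in almost every tissue, some of them are often used as reference genes. RP genes have many processed pseudogenes with nearly the same sequence, so that probes of an array can be shared between a gene and its copies.

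The deposited tables disagree on which arrays are ExpPE and which are Pr. The annotated table, which also holds the authors' own comparisons, names the arrays (NP), (saline) and (LPS), and these names were followed. The array names before these labels also hold NP, P_Saline or P_LPS, each matching its label. The other table gives equal intensities (within 7.2e-10 on the log2 scale), but there the 5 (LPS) arrays carry titles of pregnant rats and the 5 (saline) arrays carry titles of preeclamptic rats. Under those titles ExpPE vs. Pr is turned around for every gene, and the differences of Pr and of ExpPE from NPr change places. The comparison of all 10 pregnant rats with NPr is the same under both. ExpPE 1 and ExpPE 2 stood apart from the other arrays. Their scores for the 8 neuron and chromaffin cell markers (mean centred log2 intensity) were 4.07 and 2.98, against −1.43 to 1.31 on the other arrays. Their scores for the 10 skeletal muscle fibre markers were 3.07 and 3.54, and Pr 1 (4.70) and NPr 3 (1.56) were high as well. Of these lists, 1 of 8 and 0 of 10 markers lay below the 95th percentile of the smell and taste receptors. All 7 smooth muscle markers were well detected, with mean log2 intensities from 8.84 to 12.7. In whole aorta, fewer cells of a type and less RNA per cell cannot be told apart.

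Most RP genes gave strong signals. The median over the 33 genes of the mean log2 intensity was 9.89, against 5.62 over all genes, and 21 of the 33 lay above 9. A log2 intensity depends on the probes as well as on the transcript, so it does not rank the genes by amount. The 1190 smell and taste receptors, a measure of background, had a median of 2.66 and a 95th percentile of 3.90. Only *Rpl12* (2.88) and *Rpl26* (2.78) lay below that percentile, so their values are close to background. Probes were few. RP genes had between 3 and 26 probes with a median of 7, against a median of 26 over all genes, and 26 of 33 had 10 probes or fewer, against 7.64% of all genes. The genes lie on 14 chromosomes, with 1 of them, *Rpl10*, on the X chromosome. By their Entrez IDs 32 are protein-coding. The ID of the row named *Rps4x* belongs to *Rps4x-ps9*, a pseudogene on chromosome 4 (38724595 to 38725511, GRCr8), so this row may not measure *Rps4x*.

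No RP gene passed an adjusted p under 0.05 in any comparison (limma, Benjamini-Hochberg over all genes). The smallest adjusted p among the 33 was 1.00 in Pr vs. NPr, 0.640 in ExpPE vs. NPr, 0.574 in ExpPE vs. Pr and 0.849 for the 10 pregnant rats vs. NPr. Over all genes 0.212%, 0.0982%, 0% and 0.176% passed in these comparisons. At an unadjusted p under 0.05, 0, 4, 4 and 1 RP genes passed, all of them lower in the first-named group, against 1.85%, 3.62%, 3.39% and 2.4% of all genes. The threshold used by the study takes genes whose p is under 0.05 before adjustment and whose fold change is over 1.4. By it 4 RP genes passed in at least 1 comparison. All were lower in the first-named group, and *Rpl23a*, *Rps3a* and *Rpl30* were among them.

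**Figure D1:**
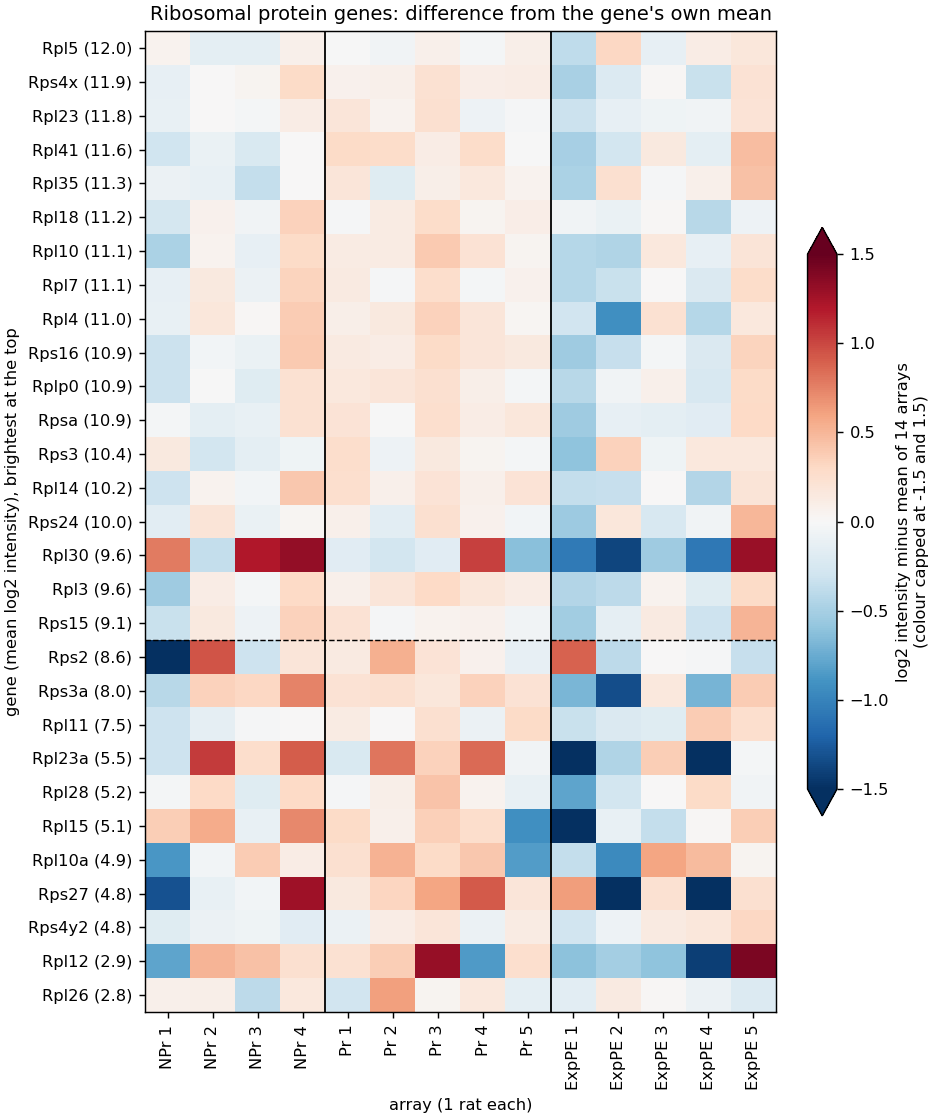
Difference of each gene's log2 intensity from its own mean over the 14 arrays (colour, in log2 units, capped at −1.5 and 1.5), for 29 of the 33 RP genes (rows, brightest at the top, with the mean log2 intensity in brackets) on the 14 arrays (columns). The dashed line separates the 18 drawn genes above 9 from the 11 others. On ExpPE 1, 31 of all 33 genes lie below their own mean, and on ExpPE 5, 27 lie above it.

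ExpPE vs. Pr compares pregnant rats with and without LPS. RP genes lay lower in ExpPE rats almost throughout. The difference was below 0 for 31 of 33 genes, with a median of −0.25 on the log2 scale, and it ranged from −1.07 to 0.0061. Over all genes 46.4% were lower, with a median of 0.02. Bright genes as a whole shared much of this direction. Of the 1038 other genes with a mean log2 intensity above 9, 820 (79.0%) were lower, with a median of −0.13. The small subunit (12 of 13 lower, median −0.24) and the large subunit (19 of 20 lower, median −0.25) had like medians. So had the 21 genes above 9 (20 lower, median −0.25) and the 12 others (11 lower, median −0.25). At the study threshold 3 of 33 RP genes were lower and 0 higher, against 1% and 1.72% of all genes. For 0 of the 33 did every ExpPE array lie below every Pr array, against 0.506% of all genes.

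The direction rested in part on ExpPE 1 and ExpPE 2. Without them 24 of 33 RP genes were lower, with a median of −0.11, and 0 passed the study threshold. Without the 4 arrays with high fibre scores (NPr 3, Pr 1, ExpPE 1 and ExpPE 2) the count was 23 and the median −0.12, with 0 past the threshold. Without ExpPE 4 alone, or without Pr 4 alone, 0 genes passed. Only 1 passed without ExpPE 1, ExpPE 2 or Pr 2, and 6 passed without ExpPE 5. Background moved as well. The receptors' mean log2 intensity ranged from 2.67 to 2.73 on Pr arrays and from 2.63 to 3.03 on ExpPE arrays. Markers of several cell types differed as well, none of them past an adjusted p under 0.05. The 10 fibre markers were all higher in ExpPE rats (median 1.86, 0 past the study threshold) and so were the 8 neuron and chromaffin cell markers (median 1.20, 1 past it) and the 5 Schwann cell markers (median 0.47, 2 past it). The 7 smooth muscle markers were all lower (median −0.25, 0 past it), with scores from −0.53 to 0.36 on Pr arrays and from −1.28 to 0.44 on ExpPE arrays. All 4 fibroblast markers (median −0.26) and all 4 macrophage markers (median −0.33) were lower too, with 0 past it. The 6 red cell lineage markers were all higher (median 0.66, 0 past it). All 4 T cell and all 3 B cell markers were lower, with 1 and 2 of them close to background. Markers of endothelium (3 of 6 lower), brown fat, white fat, mast cells and the cell cycle went both ways. Smooth muscle and fibroblast markers had medians of mean log2 intensity of 11.4 and 11.1. Of the 1038 other genes above 9, 79.0% were lower. The part of background and of these cell types in the result was not tested. The array names hold a letter whose meaning is not given in the sources used here. The Pr arrays have the letters D and E, which no other array has, so letter and group cannot be told apart here.

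**Figure D2:**
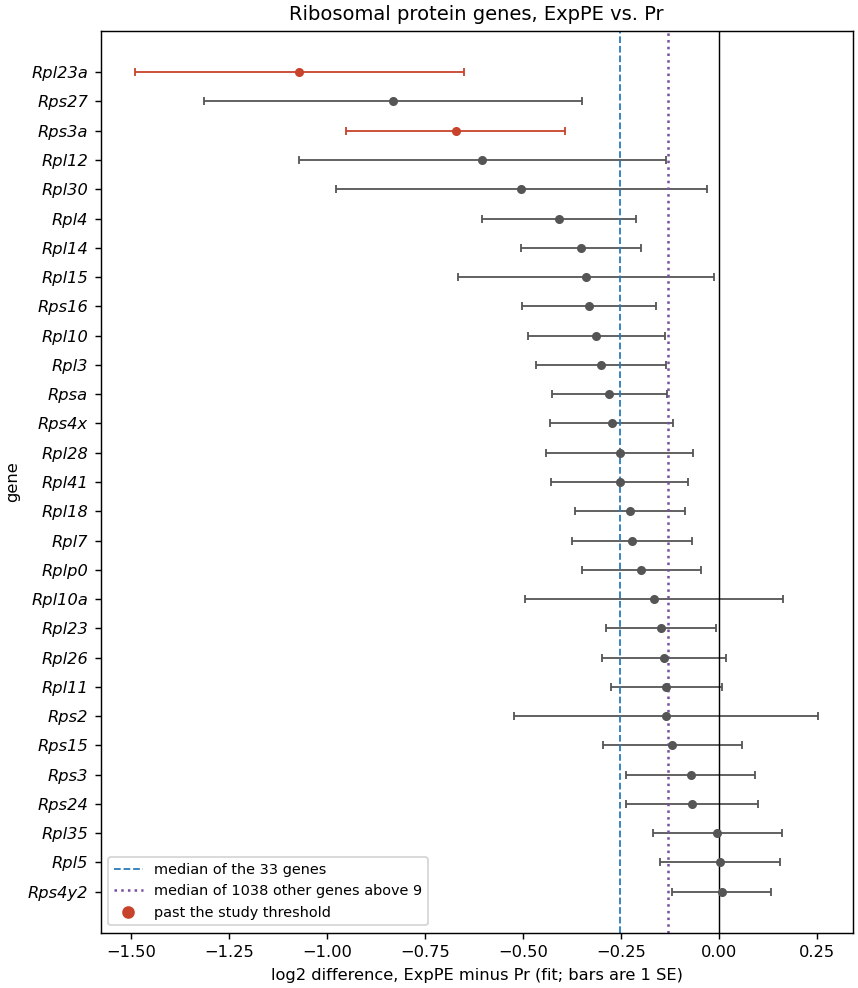
Fitted log2 difference of ExpPE (n = 5) minus Pr (n = 5) for 29 of the 33 RP genes (points, bars of 1 SE), ordered by size, with the genes past the study threshold in red. The dashed line is the median of the 33 genes (−0.25) and the dotted line that of the 1038 other genes above 9 (−0.13), and 27 of 29 points lie left of 0.

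*Rps3a* encodes a protein of the small subunit that lies near the exit of the messenger RNA. Its log2 intensities in Pr rats were close together, at 8.26, 8.28, 8.21, 8.39 and 8.25. In ExpPE rats they were 7.36, 6.71, 8.20, 7.34 and 8.42. ExpPE 1, 2 and 4 were low, and ExpPE 3 and 5 lay at the Pr level. The NPr values were 7.63, 8.39, 8.35 and 8.79. The difference between ExpPE and Pr was −0.67 ± 0.28 (SE, limma), adjusted p = 0.574. That between ExpPE and NPr was −0.68 ± 0.30, adjusted p = 0.640. Without ExpPE 1 and 2 these differences were −0.29 and −0.30, and neither passed the study threshold. The call against Pr was also lost without ExpPE 1, ExpPE 2, ExpPE 4 or Pr 4 alone (−0.64 to −0.45), and that against NPr without ExpPE 1, 2 or 4 or NPr 2, 3 or 4 (−0.66 to −0.46). With weights for array quality the differences were −0.41 and −0.50, and neither passed.

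*Rpl23a* encodes a protein at the rim of the tunnel through which the growing chain leaves the large subunit, where chaperones and the signal recognition particle dock. It was measured with 4 probes. Its log2 intensities were 5.28, 6.31, 5.86, 6.36 and 5.45 in Pr rats. In ExpPE rats they were 4.01, 5.06, 5.88, 3.49 and 5.48. The NPr values were 5.20, 6.56, 5.78 and 6.41. ExpPE 1, 2 and 4 lay below every Pr and every NPr array, and ExpPE 3 and 5 lay among them. The difference was −1.07 ± 0.42 from Pr (SE, limma, adjusted p = 0.574) and −1.20 ± 0.45 from NPr (adjusted p = 0.640). It was the largest of the 33 in ExpPE vs. Pr. Without ExpPE 4 the difference from Pr was −0.75, and without ExpPE 1 and 2 it was −0.90. Neither passed the study threshold, and nor did the differences without ExpPE 1 (−0.88), Pr 2 (−0.96) or Pr 4 (−0.94). Against NPr the call was lost without NPr 2 (−1.01) and without ExpPE 1 and 2 together (−1.04).

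**Figure D3:**
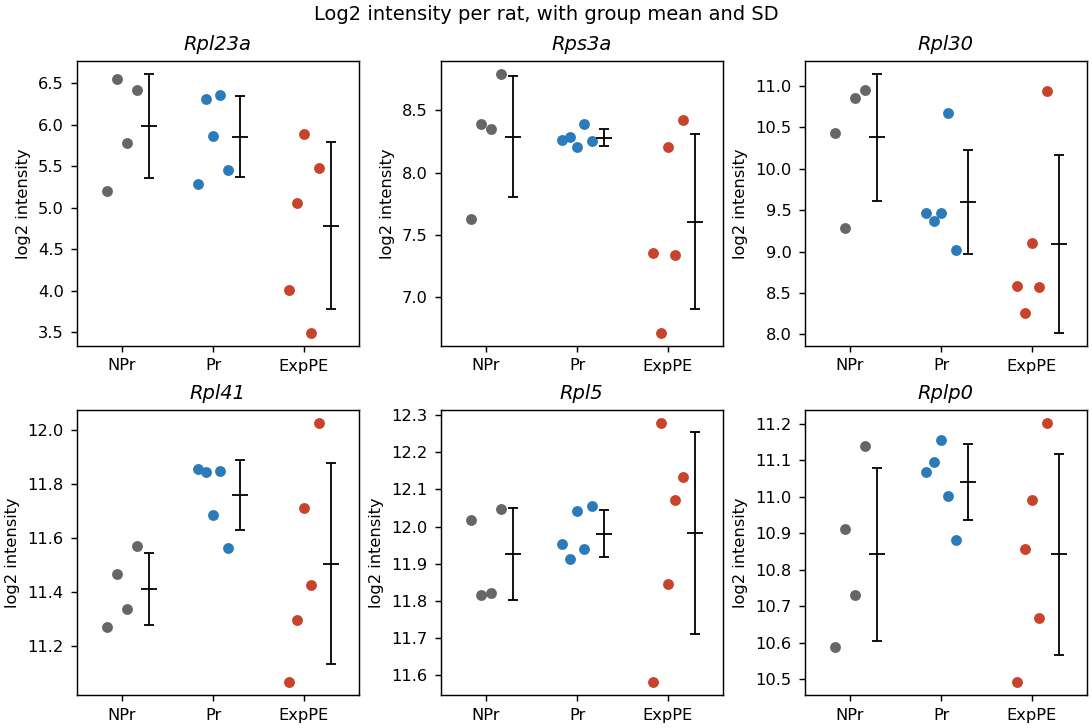
Log2 intensity of *Rpl23a*, *Rps3a*, *Rpl30*, *Rpl41*, *Rpl5* and *Rplp0* in each NPr, Pr and ExpPE rat (points), with the group mean and SD beside them. The axes differ between panels and do not start at 0. In each panel the lowest value is that of an ExpPE rat, and the 3 groups overlap.

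*Rps27*, a zinc-binding protein of the small subunit, had the second largest difference in ExpPE vs. Pr, −0.83 ± 0.48, with ExpPE values of 5.40, 3.22, 5.00, 3.25 and 5.01. Only ExpPE 2 and 4 were low among these. *Rpl5* and *Rpl11* carry the 5S rRNA into the large subunit and bind the p53 regulator Mdm2 when assembly fails. *Rpl5* gave 11.95, 11.91, 12.04, 11.94 and 12.06 in Pr rats and 11.58, 12.28, 11.85, 12.07 and 12.13 in ExpPE rats. The ExpPE values spread on both sides of the Pr values, and the difference was 0.0021 ± 0.16. For *Rpl11* it was −0.14 ± 0.14. The stalk, which recruits translation factors to the large subunit, is built on *Rplp0*, and *Rpl12* sits at its base. *Rplp0*, a frequent reference gene, gave 11.07, 11.10, 11.15, 11.00 and 10.88 in Pr rats and 10.49, 10.86, 10.99, 10.67 and 11.20 in ExpPE rats, a difference of −0.20 ± 0.15. *Rpl12*, close to background, differed by −0.60 ± 0.47.

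Along the tunnel exit *Rpl35* (−0.0048 ± 0.17) differed far less than *Rpl23a*. *Rpl26* (−0.14 ± 0.16) is close to background, so its small difference cannot be set against that of *Rpl23a*. *Rps2* and *Rps3* line the path by which messenger RNA enters the small subunit, and they differed by −0.13 ± 0.39 and −0.07 ± 0.16. *Rps4y2*, a paralog of *Rps4x*, had the highest difference of the 33, 0.0061 ± 0.12. Values of *Rpl23*, a protein at the subunit interface, ranged from 11.74 to 12.06 in Pr rats and from 11.49 to 12.02 in ExpPE rats.

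The sequence around the transcript start is shown for 9 genes, chosen to set those with large differences (*Rps27*, *Rps3a*, *Rpl12*, *Rpl4*) beside those with differences near 0 (*Rpl5*, *Rps4y2*), the stalk gene *Rplp0*, and 2 genes with no pyrimidine run (*Rpl41*, *Rps16*). Each line holds 30 bases, 15 before and 15 from an annotated RefSeq start (GRCr8), 5′ to 3′ on the gene's strand, with runs of at least 5 C or T in capitals. For some genes this start lies inside the bounds of the gene. The outer starts of *Rps27* and *Rpl5*, on the minus strand, are at 177964708 and 1995236.
Rps27 (chr2:177964592-177964621, minus strand): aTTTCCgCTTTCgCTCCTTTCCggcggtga
Rps3a (chr2:173827028-173827057, minus strand): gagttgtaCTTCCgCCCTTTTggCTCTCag
Rpl12 (chr3:36661925-36661954, plus strand): ggagcaacatccgTCTTTTCggCTTTCggt
Rpl4 (chr8:73566462-73566491, plus strand): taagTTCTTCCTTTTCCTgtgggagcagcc
Rplp0 (chr12:46718376-46718405, minus strand): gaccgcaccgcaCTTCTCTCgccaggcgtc
Rpl5 (chr14:1995211-1995240, minus strand): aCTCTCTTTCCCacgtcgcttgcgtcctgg
Rps4y2 (chr4:183000898-183000927, plus strand): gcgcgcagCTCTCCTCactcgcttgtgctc
Rpl41 (chr7:1563483-1563512, minus strand): ggcggctcggaagtgacgacaccaagcacg
Rps16 (chr1:92770643-92770672, plus strand): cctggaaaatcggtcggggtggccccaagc

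A promoter entry of 300 bases was at hand for 24 of the 33 genes. A run of at least 5 C or T stood in the 30-base window of 19 of the 24 (79.2%), against 45.6% of 33469 promoters. A stretch of at least 5 C or T that begins with a C no more than 5 bases from the annotated start, counted also where it lies inside a longer run, was found in 14 of 24 (58.3%), against 17.0% of all promoters. Runs were present in genes with large and with near-zero differences alike. The median difference of ExpPE from Pr was −0.23 for the 14 genes with a stretch near the start and −0.18 for the 10 without. Which genes count depends on the annotated start that was used. Over the whole entries, 250 bases before and 50 after the start, searched on both strands, GGGCGG (bound by SP1) stood in 15 of 24 (62.5% against 33.1%) and CCGGAAG (bound by GABP) in 5 of 24 (20.8% against 8.75%). GCCATNTT (bound by YY1) stood in 2 of 24 (8.33% against 6.97%). Such matches describe letters only.

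ExpPE vs. NPr shares its ExpPE arrays with the comparison above. Of 33 RP genes 24 were lower in ExpPE rats, with a median of −0.12, against 0.02 over all genes. Of the 1038 other genes above 9, 74.4% were lower, with a median of −0.14. At the study threshold 3 RP genes were lower and 0 higher, against 1.14% and 1.98% of all genes. Besides *Rpl23a* and *Rps3a* this was *Rpl30*, a small protein of the large subunit measured with 3 probes. Its log2 intensities were 10.42, 9.28, 10.85 and 10.95 in NPr rats. In ExpPE rats they were 8.59, 8.26, 9.11, 8.57 and 10.94. In Pr rats they were 9.47, 9.37, 9.47, 10.67 and 9.01. In ExpPE rats 4 of 5 arrays lay below every NPr array, and ExpPE 5 was as high as the highest of them. The difference was −1.28 ± 0.50 (SE, limma), adjusted p = 0.640. The call was lost without ExpPE 2, ExpPE 4, NPr 3 or NPr 4 (−1.15 to −1.08). Weights for array quality reduced the difference to −0.38, below the threshold.

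The median of ExpPE vs. NPr moved with single arrays. Without ExpPE 1 and 2 it was 0.01, with 16 of 33 genes lower and 0 past the threshold. Only 1 gene passed without NPr 2, NPr 4, ExpPE 2 or ExpPE 4, 2 passed without NPr 3 or ExpPE 1, and 5 without ExpPE 5. The letter B stood in the names of NPr 4, ExpPE 1 and ExpPE 2. Within these arrays 32 of 33 RP genes were lower in the ExpPE rats, with a median of −0.67 against 0.05 over all genes. NPr 4 had the highest RP values of the NPr arrays. *Rpl15* of the large subunit (−0.71 ± 0.35) did not pass the threshold. The highest differences were those of *Rps4y2* (0.18 ± 0.13), *Rpl35* (0.19 ± 0.17) and *Rps2* (0.27 ± 0.41). *Rps2* gave 6.80, 9.54, 8.29 and 8.78 in NPr rats, a wider range than in Pr (8.48 to 9.14) or ExpPE rats (8.20 to 9.49).

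Pr vs. NPr compares pregnant and non-pregnant rats that had saline only. The NPr arrays have the letters A and B and the Pr arrays D and E, so letter and group cannot be told apart here either. Of 33 RP genes 27 were higher in Pr rats, with a median of 0.14, against −0.02 over all genes and 0.0023 over the 1038 other genes above 9. No RP gene passed the study threshold, against 2.43% of all genes higher and 0.982% lower. Without ExpPE 5, which shares the estimate of the spread, or without NPr 2, 1 gene passed. The smallest p belonged to *Rpl41*, a very short basic protein between the subunits. Its values were 11.27, 11.47, 11.34 and 11.57 in NPr rats and 11.86, 11.84, 11.68, 11.85 and 11.56 in Pr rats. In Pr rats 4 of 5 lay above every NPr value. The difference was 0.35 ± 0.18 (SE, limma), adjusted p = 1.00. Among the genes higher in Pr rats *Rpl11* (0.23 ± 0.15) and *Rpl10*, whose product joins the large subunit late in its maturation (0.25 ± 0.19), followed. *Rpl30* (−0.78 ± 0.50) and *Rpl15* (−0.37 ± 0.35) had differences below 0. The median rested on NPr 1 more than on any other array, and it was 0.02 without it.

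For the 10 pregnant rats against the 4 NPr rats, which both sets of titles give alike, 18 of 33 RP genes were higher and 15 lower. Their median was 0.01. Over all genes 49.3% were lower, and of the 1038 other genes above 9, 65.1% were lower, with a median of −0.07. With arrays centred on those bright genes, 23 RP genes were higher, with a median of 0.09. Under the same scaling 13235 of all 19357 genes were higher, with a median of 0.08, so the RP genes moved much like all genes. Without NPr 1, 23 RP genes were lower, with a median of −0.11. In the fit of all 14 arrays, 1 RP gene was lower and 0 higher at the study threshold, against 0.92% and 1.67% of all genes. This was *Rpl30*, with a difference of −1.03 ± 0.44 (SE, limma), adjusted p = 0.849. It did not pass without NPr 1, NPr 3, NPr 4, Pr 5, ExpPE 1, ExpPE 2 or ExpPE 4 (−1.02 to −0.84), and 2 genes passed without NPr 2 or ExpPE 3. With weights for array quality its difference was −0.31, below the threshold.

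RP genes moved together from rat to rat. The mean of the 33 centred log2 intensities was −0.27, 0.10, −0.01 and 0.33 on the NPr arrays. On the Pr arrays it was 0.12, 0.13, 0.27, 0.15 and −0.02. On the ExpPE arrays it was −0.46, −0.32, −0.0036, −0.28 and 0.26. Pr rats were the most alike (SD 0.11). NPr rats (SD 0.25) spread on both sides of them, and ExpPE rats (SD 0.29) reached below them but not above. ExpPE 1, 2 and 4 lay below every Pr array, ExpPE 3 lay just inside the Pr range, and ExpPE 5 was near its top. Between 2 of the 21 genes above 9 the correlation of deviations from the group means over the 14 arrays had a median of 0.68, and 72.9% of 210 pairs were above 0.5. Among the 12 other RP genes the median was 0.28, and among the 1038 other genes above 9 it was 0.17. These pairs share arrays, brightness and normalization, so the values are a description.

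**Figure D4:**
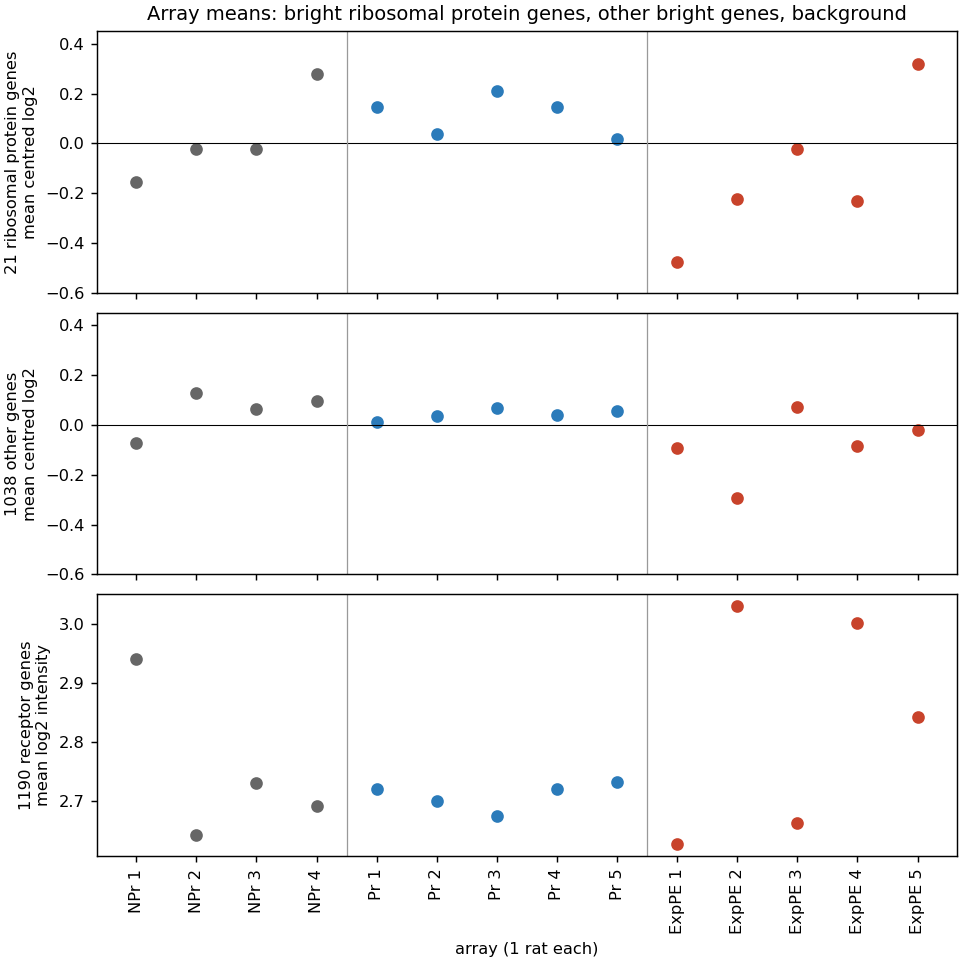
Mean centred log2 intensity of the 21 RP genes above 9 (top) and of the 1038 other genes above 9 (middle), and mean log2 intensity of the 1190 receptors (bottom), on each array (points, coloured by group). The top panel ranges from −0.48 on ExpPE 1 to 0.32 on ExpPE 5, the middle panel from −0.29 to 0.13.

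Part of this was shared with other bright genes, and part was not. On ExpPE 2 the 21 RP genes lay at −0.22 and the other bright genes at −0.29, while the receptor mean was the highest of all arrays, 3.03. On ExpPE 1 the RP genes lay at −0.48 and the other bright genes at −0.09, with the lowest receptor mean, 2.63. On ExpPE 5 they lay at 0.32 and −0.02. The difference between both was −0.38 on ExpPE 1 and 0.34 on ExpPE 5, and it stayed between −0.15 and 0.18 on the other 12 arrays. With each array centred on the other genes above 9, 27 of 33 RP genes were lower in ExpPE than in Pr rats, with a median of −0.13. Under this scaling 4987 of all 19357 genes were lower, with a median of 0.15. Centred on the receptors, all 33 RP genes were lower, with a median of −0.38. With that scaling 13026 of all 19357 genes were lower, with a median of −0.10.

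The members differed in how far they shared this movement. The correlation of a gene with the mean of the other RP genes above 9 was 0.96 for *Rps16*, 0.95 for the row named *Rps4x*, 0.93 for *Rps15* and 0.91 for *Rpl7* and *Rplp0*. It was −0.05 for *Rps2* and *Rpl26*, and 0.35 for *Rps3*. The SD over the 14 arrays was largest for *Rpl30* (0.95), *Rpl23a* (0.89) and *Rps27* (0.87), and smallest for *Rpl23* (0.15), *Rpl5* (0.17) and *Rps4y2* (0.17). The widest spreads were found among genes with few probes. The median SD was 0.41 for the 14 genes with 5 probes or fewer and 0.26 for the 19 with more. Split by intensity, it was 0.55 for the 12 genes at or below 9 and 0.25 for the 21 above 9. Probe number and intensity were not separated. *Rpl30*, *Rpl23a* and *Rps3a* had 3, 4 and 5 probes.

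**Figure D5:**
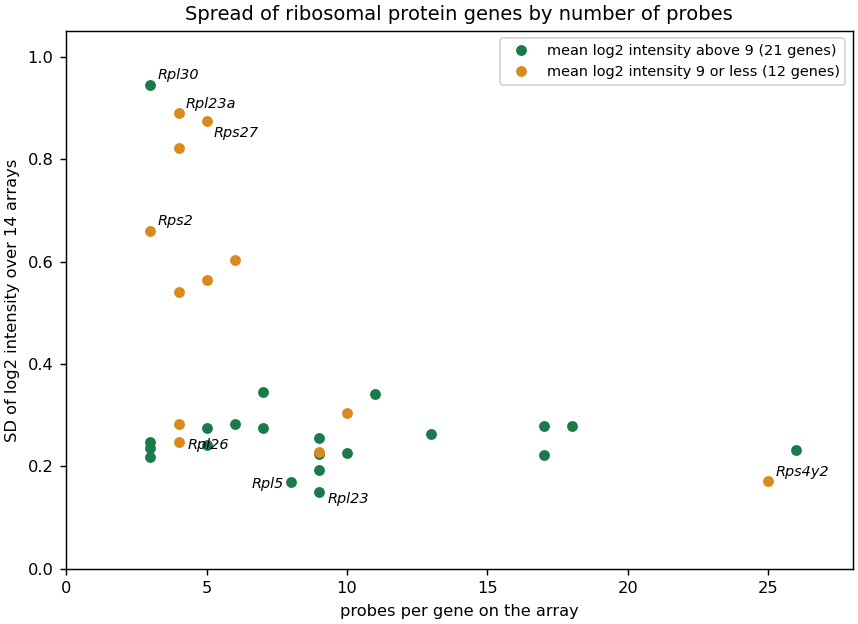
SD of the log2 intensity over the 14 arrays against the number of probes, for the 33 RP genes (points, green above a mean log2 intensity of 9 and orange at or below it). All genes with an SD above 0.4 have 6 probes or fewer, and *Rpl30*, *Rpl23a* and *Rps27* are highest.

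Genes linked to the ribosome were read from lists. No gene of these lists passed an adjusted p under 0.05 in any comparison. The 69 mitochondrial RP genes, which serve the ribosome inside mitochondria, had other medians than the cytosolic ones. In Pr vs. NPr 64 of 69 were lower (median −0.21), and in ExpPE vs. NPr 66 of 69 (median −0.30), with 0 and 2 past the study threshold. Over all genes 54.6% and 46.9% were lower, and 0.982% and 1.14% passed that threshold lower. Of the 1038 other genes above 9, 48.8% and 74.4% were lower. In ExpPE vs. Pr their median was −0.07, with 49 lower. Both comparisons share the 4 NPr arrays. On NPr 3 the mean of these genes was 0.51, on NPr 1 0.29 and on NPr 2 and 4 0.03 and −0.08, so that only part of the NPr arrays were high. High means were also found on ExpPE 1 (0.44) and Pr 1 (0.37), while the other arrays of pregnant rats reached at most 0.05. Brown fat markers, of which 1 of 6 lay below the 95th percentile of the receptors, had scores in the same order on NPr 3, 1, 2 and 4 (1.61, 1.32, 0.62 and −0.62). Their scores ranged from −1.19 to 0.71 on Pr arrays and from −1.005 to 1.24 on ExpPE arrays. Of the 6 markers 5 were lower in Pr vs. NPr (median −0.83) and 5 in ExpPE vs. NPr (median −0.999), with 2 past the study threshold in each. Their part in the values of the mitochondrial RP genes was not tested. In ExpPE vs. Pr, for which the next lists are given, 46.4% of all genes were lower, and 1% passed the study threshold lower and 1.72% higher. The share of lower genes rose with intensity. It was 1058 of 5708 for other genes with a mean log2 intensity up to 4, 3990 of 5939 over 6 up to 8 and 820 of 1038 above 9. The lists were not matched for intensity. Of 13 measured translation factors and partners whose mRNAs also carry a TOP motif, 12 were lower in ExpPE than in Pr rats, with a median of −0.07 and 1 lower past the threshold. Of 34 genes of ribosome assembly and rRNA synthesis 26 were lower, with a median of −0.12 and 0 past the threshold. Among the 17 genes of mTOR, its TOP-binding effector Larp1, the S6 kinases and Myc, 9 were higher and 8 lower, with a median of 0.02. The 69 other genes and loci described as RP-like, 38 of them lower, had a median of −0.06, with 4 lower and 0 higher past the threshold. Of 9 measured genes of other ribosome proteins and paralogs 5 were lower (median −0.05). These 2 lists overlap, with the same highest difference (0.53) in both. Of 3 genes linked to p53 2 were lower (median −0.10).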

How the data were processed

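The authors hybridized total RNA of whole abdominal aorta, 1 array per rat, and made the deposited intensities with robust multichip average (RMA, named in the submitters' processing notes, version not given in the sources used here), including quantile normalization, run in MADMAX after regrouping the probes by Entrez gene. These intensities are on the linear scale, and their log2 was analysed for all 19357 genes with no filter. The deposited SD column is the SD of log2 intensities. The deposited score columns (signed linear fold changes by limma) and the deposited p-values and q-values (IBMT, a moderated test) are the authors' own comparisons and were not used. The authors describe that test as paired but do not say which rats form pairs, and the main fit here used no pairs.

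Groups were fitted with limma 3.58.1 (R 4.3.3) as a mean per group over 14 arrays, with moderated variances whose prior follows intensity. Benjamini-Hochberg adjustment took in all genes. The study threshold is a p under 0.05, not adjusted, and a fold change over 1.4. P-values set a group difference against the moderated spread between rats within the groups. The number of arrays limits the precision. The fit was tested on simulated data. Named genes were those past a threshold, with the smallest p or extreme spread or intensity, or on short lists of roles, and some members are counted throughout but not reported by name here. Members and lists were chosen with earlier results of these data known. *Olr1*, which is no smell receptor, was taken out of the receptor list after the values were seen. Python 3.11.15, numpy 2.4.6, pandas 2.3.3 and matplotlib 3.10.9 were used. Alternatives were another prior variance, fits of the groups compared only, blocks by replicate number or by the letter in the array names, array weights, filters on intensity and probes, other scalings, the other titles and each rat left out. Sequences are from RefSeq (GRCr8), matched by gene ID.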

Additional observations from a re-analysis of the deposited data

Results flagged for a closer look

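Of 60 sets of values tested (17 named genes and 3 means over RP genes, each in 3 groups) 3 held 1 rat far from the others of its group, where chance gives about 1 in 20. *Rpl30* was highest in Pr 4, at 10.7, with the next value at 9.47. *Rpl15* was lowest in Pr 5, at 4.15, with the next at 5.14. *Rpl26* was lowest in NPr 3, at 2.39, with the next at 2.85, and this gene lies close to background.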

How the results depend on the processing

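No RP gene passed the adjusted p in any of 4 comparisons under any alternative run. With the other titles of the arrays, 3 RP genes passed the study threshold in ExpPE vs. Pr, all in the other direction, 0 in ExpPE vs. NPr and 3 in Pr vs. NPr, and the medians were 0.25, 0.14 and −0.12. Under these titles the differences were 1.07 for *Rpl23a*, 0.67 for *Rps3a*, −0.0021 for *Rpl5* and −0.0061 for *Rps4y2* in ExpPE vs. Pr, and −0.065 for *Rpl10* in Pr vs. NPr. Weights for array quality left 1 gene in ExpPE vs. NPr and 1 in ExpPE vs. Pr, and turned *Rps2* to −0.44 in ExpPE vs. NPr. Of the genes with at least 10 probes 0 passed in ExpPE vs. NPr, 1 in ExpPE vs. Pr and 0 in pregnant vs. NPr. Without ExpPE 1 and 2, or without the 4 arrays with high fibre scores, these counts were 0, 0 and 0. Differences near 0 in ExpPE vs. Pr changed sign with the scaling. *Rpl5* was −0.12 with arrays centred on the receptors and −0.015 when centred on their median. *Rps4y2* was −0.12, −0.011 and, after a second quantile normalization, −0.12. Within the arrays with the letter B the median of ExpPE vs. NPr was −0.67. The cause of these changes was not tested. Scaling on the receptors, on the other bright genes and the fibre array set were chosen after seeing the data.

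With each rat left out in turn, between 1 and 5 genes passed the study threshold in ExpPE vs. NPr, between 0 and 6 in ExpPE vs. Pr, between 0 and 1 in Pr vs. NPr and between 0 and 2 in pregnant vs. NPr. The medians lay from −0.24 to −0.01, from −0.32 to −0.18, from 0.02 to 0.19 and from −0.11 to 0.08. Among single genes *Rpl5* (−0.072 to 0.10) and *Rps4y2* (−0.059 to 0.090) in ExpPE vs. Pr and *Rps2* (−0.25 to 0.67) in ExpPE vs. NPr changed sign.

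Deviations of arrays with the same replicate number correlated between −0.40 and 0.40. Arrays with different numbers were not compared in this way, so these values cannot decide whether the numbers pair the rats. With the replicate number as a block 0, 3, 3 and 1 RP genes passed the study threshold in turn. The order is Pr vs. NPr, ExpPE vs. NPr, ExpPE vs. Pr and pregnant vs. NPr, and the medians were 0.09, −0.15, −0.25 and −0.04.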
